A study of Mus musculus with 6 samples.

Results

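Keratin genes were taken as all genes on the array whose annotated symbol is Krt followed only by a number, which gave 44 of the 18193 genes measured. The arrays held uterine RNA of female mice at 4 weeks of age, 3 arrays of control and 3 of mutant mice. The mutant mice were Pgr cre/+ Ctnnb1f(ex3)/+. In them Cre is made from the Pgr gene, which encodes the progesterone receptor, and deletes exon 3 of 1 copy of Ctnnb1 in cells that express Pgr, so that the β-catenin made from that copy escapes degradation. The control mice are called wild type in the sample labels and are given as Pgr cre/+ and as Ctnnb1 f(ex3)/+ mice in the study's description. The methods give the age as 1 month and state that RNA of the uteri of 3 mice per genotype was pooled, so whether the arrays of a group stand for separate animals is not settled. What the p-values measure is therefore how much these arrays vary, and part or all of that variation may be technical. RNA came from whole uterus, in which fewer cells of a type and less RNA per cell cannot be told apart.

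Keratins are the intermediate filament proteins of epithelial cells, and each filament is built from pairs of an acidic type I and a basic type II keratin. Simple epithelia such as the lining and glands of the uterus are known for Krt8, Krt18, Krt19 and Krt7. Stratified epithelia carry Krt5, Krt14 and Krt15 in their basal layer and other keratins above it, and a further group builds hair, nail and the inner root sheath of the hair follicle.

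Values are log2 of the deposited intensities, and each gene was read by its brightest probe set. Probes differ in brightness, so levels of different genes were not ranked, and where a value of another gene on the same array was subtracted, only the difference between arrays is to be read. On each array 62.3 to 62.6% of all probe sets lay below an intensity of 16, which is 4 on the log2 scale, and differences of such dim genes may be understated. Control arrays correlated with each other at a Pearson's r of 0.992 to 0.996, mutant arrays at 0.994 and arrays of different groups at 0.981 to 0.990, taken over probe sets, which do not count as replicates. Mutant replicate 1 was the mutant array most like the controls. Ctnnb1 itself, whose probe sets are not known to lie in the deleted exon and so do not check the deletion, gave 11.51, 11.54 and 11.53 in control and 11.72, 11.92 and 11.93 in mutant arrays and was higher in the mutant by 0.33 (SE 0.09, adjusted p = 0.0498 by limma). This call lies just under the threshold and rests on 1 of its 3 probe sets. Whether it holds without single arrays was not examined. The tissue label was checked with 7 uterine genes, and all of them were at 16 or above on at least 1 array. Of these, Wnt7a, Pgr and Emx2 were lower in the mutant, with log2 differences of -1.71, -0.97 and -0.62, and Hoxa10, Hoxa11, Esr1 and Msx1 were not called. That is 3 of 7 lower and none higher, beside 6.36% of all genes lower and 5.61% higher. The other probe sets of Wnt7a differed by -0.17 and -0.04, and their mean with the first by -0.64. Pgr is the gene that carries Cre in the mutants, and which control arrays carry it too is not given. The part of this in the difference of Pgr was not tested.

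Of the 44 keratins, 4 rose in the mutant (Krt15, Krt5, Krt23 and Krt83) and 2 fell (Krt18 and Krt12) at an adjusted p under 0.05 by limma, with Benjamini-Hochberg adjustment over all genes. The 4 keratins that rose are 9.09% of the group, beside 5.61% of all genes called higher. The 2 that fell are 4.55% of the group, beside 6.36% of all genes called lower. In 7 keratins, 15.9% of the group, all mutant values were above all control values, against 14.9% of all genes. In 5 keratins, or 11.4%, all mutant values were below all control values, against 17.4% of all genes. The keratins as a group were thus called at shares close to the background, with a median log2 difference of -0.03 against -0.01 over all genes. The differences within the group ranged from -0.80 to 3.49. Most keratins were dim, with 32 of the 44 below 16 on all 6 arrays and 12 at 16 or above on at least 1 array. Over all genes, 3.35% of those below 16 on all arrays were called in either direction, and 17.9% of the others. Among the 32 dim keratins only Krt12 was called. Krt15, Krt5, Krt23, Krt83 and Krt18 were among the 12, but Krt15, Krt5 and Krt23 reached 16 only on mutant arrays. Their place there thus rests on the change itself.

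**Figure D1:**
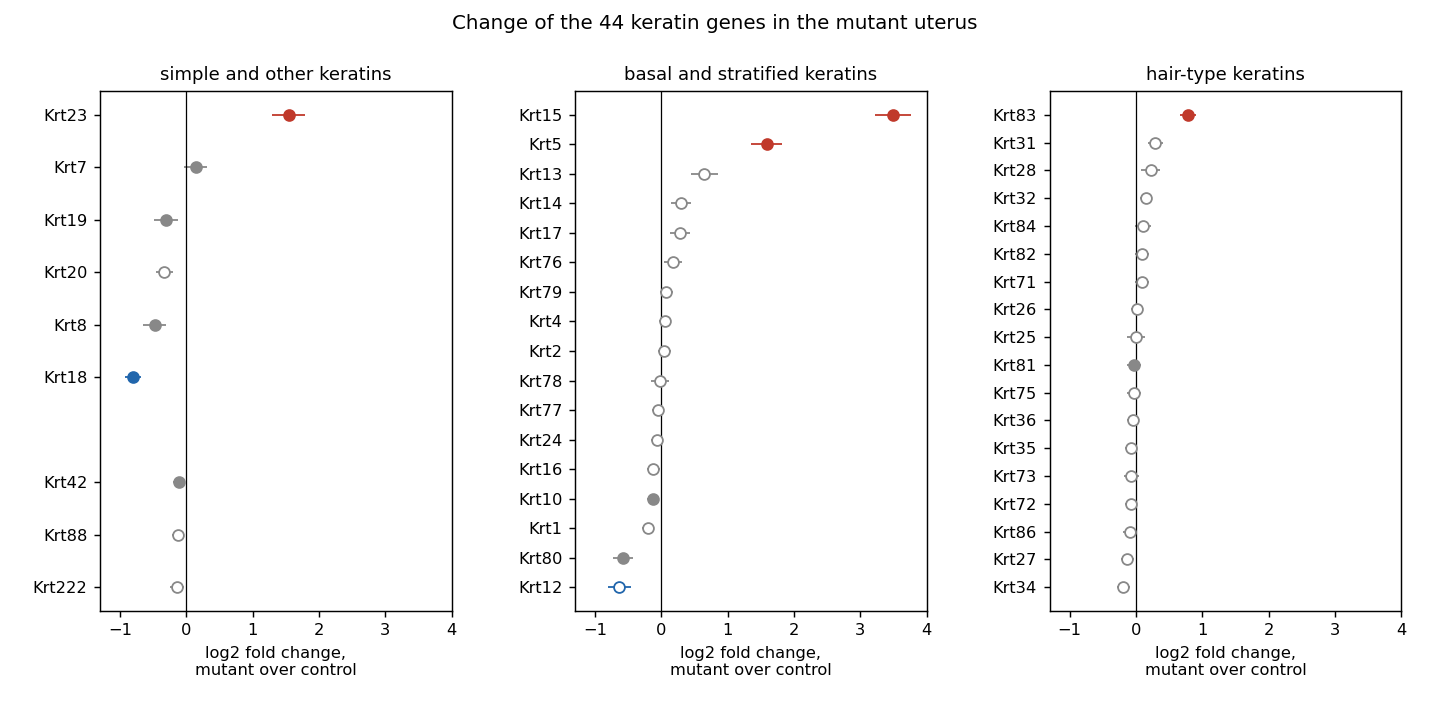
The log2 difference of mutant minus control is plotted for each of the 44 keratins, grouped into simple, basal and stratified, hair-type and other keratins, with limma's standard error as the bar and the 6 called genes marked. Krt15 stands at 3.49 and Krt18 at -0.80, and most other keratins lie near 0.

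Sequence upstream of the annotated gene start is shown for the keratins on which the comparison turns and for Krt8, the partner of Krt18, as a record of what lies before each gene. Windows were taken from the RefSeq promoter table of GRCm38.p6, in which 31 of the 44 keratins were matched, and Krt15, Krt83 and Krt19 were not among them. Each line gives the 250 bases before the annotated start, read 5′ to 3′ on the strand of the gene. Krt5 lies on the minus strand at chr15:101712906-101713155, Krt23 on the minus strand at chr11:99493121-99493370, Krt8 on the minus strand at chr15:102004343-102004592 and Krt18 on the plus strand at chr15:102027966-102028215. Capitals mark the E-box CAGGTG or its reverse complement CACCTG and, in Krt18, the AP-2 motif GCCNNNGGC.
Krt5: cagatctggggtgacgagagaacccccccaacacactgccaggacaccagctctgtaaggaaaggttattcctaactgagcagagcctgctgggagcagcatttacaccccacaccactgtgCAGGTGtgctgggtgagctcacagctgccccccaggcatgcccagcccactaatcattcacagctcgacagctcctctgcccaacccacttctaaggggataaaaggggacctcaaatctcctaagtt
Krt23: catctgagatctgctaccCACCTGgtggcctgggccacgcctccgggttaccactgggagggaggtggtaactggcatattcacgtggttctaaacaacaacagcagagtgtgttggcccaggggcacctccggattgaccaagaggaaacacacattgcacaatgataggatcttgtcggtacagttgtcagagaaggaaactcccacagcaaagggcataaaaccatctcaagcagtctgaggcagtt
Krt8: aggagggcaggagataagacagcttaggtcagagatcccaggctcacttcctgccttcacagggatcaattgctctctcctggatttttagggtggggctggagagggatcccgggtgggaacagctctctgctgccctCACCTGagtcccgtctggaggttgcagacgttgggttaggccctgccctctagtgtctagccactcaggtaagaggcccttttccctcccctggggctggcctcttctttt
Krt18: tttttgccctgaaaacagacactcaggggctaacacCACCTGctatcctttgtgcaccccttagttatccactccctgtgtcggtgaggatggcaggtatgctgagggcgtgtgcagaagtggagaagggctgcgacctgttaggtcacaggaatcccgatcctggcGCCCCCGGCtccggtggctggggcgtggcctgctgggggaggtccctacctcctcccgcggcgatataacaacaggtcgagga

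The E-box lay 128 to 123 bases before the start of Krt5, 232 to 227 before Krt23, 111 to 106 before Krt8 and 214 to 209 before Krt18, and so it was found both in genes that rose and in one that fell. Searched on both strands, it was present in 11 of the 31 keratin windows and in 17.2% of all 32851 windows of the same length. For this and the other motifs, keratins were counted with 1 window per gene. All windows were counted with no such step, so the shares are not in the same units. The AP-2 motif, 83 to 75 bases before the start of Krt18, was in 3 of 31 keratin windows and in 13.7% of all windows. No marked motif overlapped another. The TCF/LEF motif, spelled CTTTG followed by AA, AT, TA or TT, which is bound by the nuclear partners of β-catenin, was in 6 of 31 keratin windows and in 14.8% of all windows. The TATA box TATAAA was in 15 of 31 keratin windows against 12.4% of all windows, the AP-1 motif TGANTCA in 1 of 31 against 6.75%, and the GC box GGGCGG in 2 of 31 against 32.7%. None of these last 4 motifs was in the windows printed above. A match describes letters in a window, and binding was not measured.

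Of the 6 simple keratins measured, Krt18 fell, Krt23 rose and Krt8, Krt19, Krt7 and Krt20 were not called, with a median of -0.32. Beside this, 5.61% of all genes were called higher and 6.36% lower. Krt18, a type I keratin that pairs with Krt8 in simple epithelia, gave 10.26, 10.21 and 10.14 in the 3 control arrays and 9.38, 9.20 and 9.62 in the 3 mutant arrays. The groups did not overlap, and the control arrays lay close together. The mean went from 10.20 ± 0.06 to 9.40 ± 0.21 (SD, n = 3 per group), a difference of -0.80 (SE 0.12, adjusted p = 0.00584 by limma), which is 0.572 times the control level.

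Krt8, the type II partner of Krt18 and its direct neighbour among the protein-coding genes, gave 10.19, 9.99 and 10.47 in control and 9.68, 9.49 and 10.04 in mutant arrays. Mutant replicate 3 lay above control replicate 2, so the groups overlapped. The difference was -0.48 (SE 0.17), with an adjusted p of 0.117 by limma, and its other probe sets gave -0.48 and -0.42 without passing the threshold over all probe sets (adjusted p = 0.0881 and 0.112). When replicate number was added to the fit, the SE was 0.08 and Krt8 was called lower (adjusted p = 0.0204 by limma). The value of Krt18 minus that of Krt8 on the same array averaged -0.01 ± 0.28 in control and -0.34 ± 0.08 in mutant arrays (SD, n = 3), and the single values overlapped.

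Krt19, a type I keratin of simple and ductal epithelia, gave 9.53, 9.47 and 9.86 in control and 9.04, 9.21 and 9.70 in mutant arrays. Mutant replicate 3 lay within the control range, and the difference of -0.31 (SE 0.18) was not called (adjusted p = 0.349 by limma). Krt7, a type II keratin of glandular and ductal epithelia, gave 7.93, 7.64 and 7.88 against 7.62, 7.96 and 8.30. Its groups overlapped, with a difference of 0.14 (SE 0.17, adjusted p = 0.667 by limma) that became -0.03 without mutant replicate 3. Krt20, best known from the gut and the urothelium, was below 16 on all 6 arrays, at 2.25, 2.51 and 2.27 in control and 2.25, 1.90 and 1.90 in mutant arrays, and was not called.

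Krt23, a type I keratin found in several glandular epithelia, went the other way from Krt18. It gave 3.62, 3.55 and 2.93 in control and 4.52, 4.87 and 5.35 in mutant arrays. All control arrays lay below an intensity of 16 and all mutant arrays above it. The mean rose from 3.37 ± 0.38 to 4.91 ± 0.42 (SD, n = 3), by 1.54 (SE 0.25, 2.91-fold, adjusted p = 0.00854 by limma). Its neighbour Krt20 differed by -0.33 (adjusted p = 0.146).

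**Figure D2:**
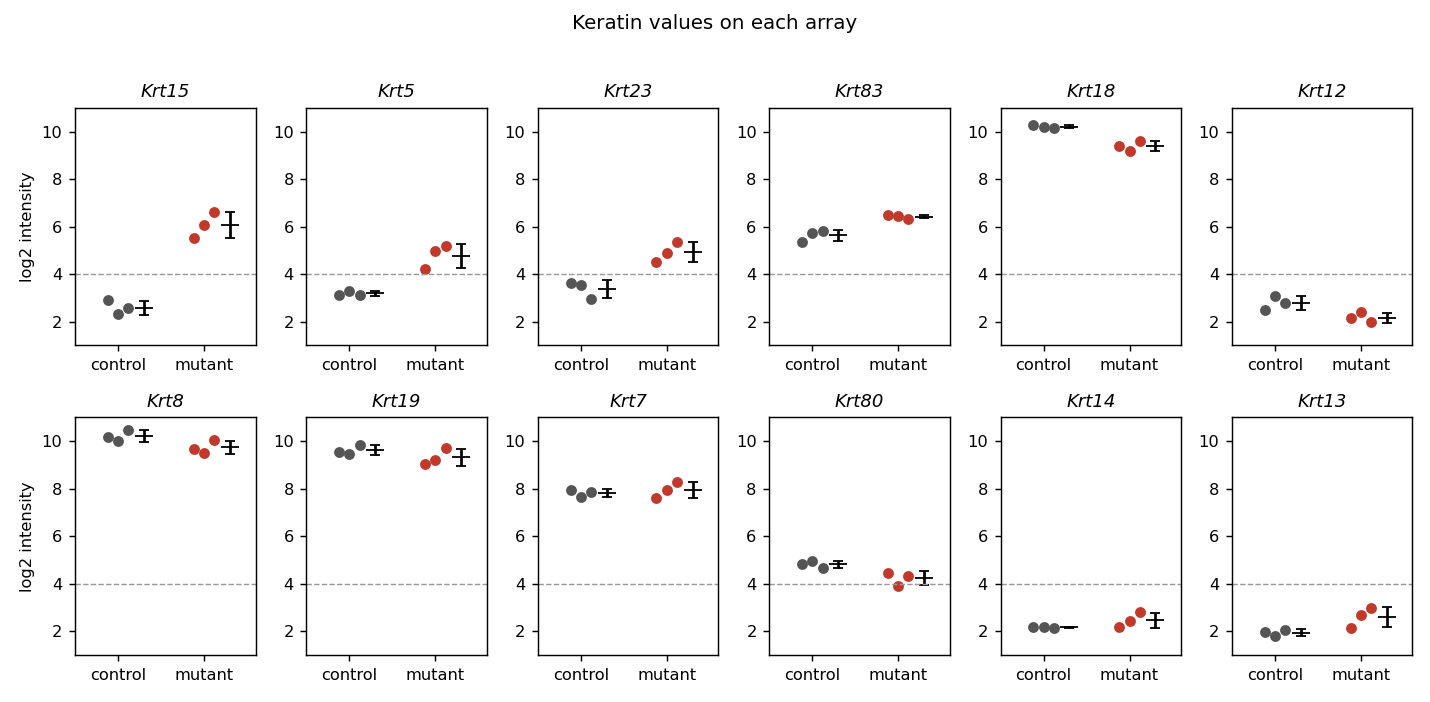
Points give the log2 intensity on the 3 control and 3 mutant arrays, with the group mean as a short line and the SD as the bar. The keratins plotted are Krt15, Krt5, Krt23, Krt83, Krt18, Krt12, Krt8, Krt19, Krt7, Krt80, Krt14 and Krt13. Krt15, Krt5, Krt23 and Krt83 are higher on each mutant array than on each control array and Krt18 and Krt12 are lower, while the arrays of Krt8, Krt19 and Krt7 overlap.

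Of the 17 basal and stratified keratins measured, Krt15 and Krt5 rose, Krt12 fell and 14 were not called, with a median of 0.05, and 13 were below 16 on all arrays. Among all genes 5.61% were called higher and 6.36% lower, and 3.35% of those below 16 on all arrays were called. Krt9 was listed but not measured. Krt15, a type I keratin of the basal layer that is also known as a marker of hair follicle stem cells, showed the largest difference among the keratins. It gave 2.90, 2.30 and 2.55 in control and 5.52, 6.08 and 6.62 in mutant arrays. Each control array lay below 16 and the groups stood far apart, with means of 2.58 ± 0.30 and 6.07 ± 0.55 (SD, n = 3). The rise was 3.49 on the log2 scale (SE 0.27, 11.2-fold, adjusted p = 0.00052 by limma). Krt15 was read by 1 probe set. It lies between Krt13 and Krt19 in the RefSeq gene order, and neither of these neighbours was called.

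Krt5, the type II keratin of the basal layer, gave 3.13, 3.29 and 3.12 in control and 4.20, 4.95 and 5.17 in mutant arrays. The control arrays lay close together, and each mutant array lay above 16. The mean rose from 3.18 ± 0.09 to 4.77 ± 0.51 (SD, n = 3), by 1.59 (SE 0.23, 3.01-fold, adjusted p = 0.00586 by limma). Krt14, the type I keratin that pairs with Krt5 in the basal layer, gave 2.17, 2.16 and 2.15 in control and 2.17, 2.41 and 2.79 in mutant arrays. It stayed below 16 on all arrays and was not called, with a difference of 0.30 (SE 0.15, adjusted p = 0.258 by limma). Its other probe sets were also dim and not called. They differed by 0.25, with each mutant array above each control array, and by -0.01.

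Krt13, a type I keratin of the upper layers of mucosal stratified epithelia, gave 1.96, 1.80 and 2.07 in control and 2.14, 2.66 and 2.99 in mutant arrays. The mutant values were above all control values, but all were below 16 and the difference of 0.65 (SE 0.20) had an adjusted p of 0.0817 by limma. Its other probe sets differed by 0.08 and 0.01. Krt80, a type II keratin of many epithelia, gave 4.84, 4.95 and 4.64 in control and 4.47, 3.92 and 4.33 in mutant arrays. The mutant arrays all lay below the control arrays, and the difference of -0.57 (SE 0.15) had an adjusted p of 0.0533 by limma. It passed the threshold in 5 alternatives, with median-centred arrays (adjusted p = 0.0498), quantile normalization (0.0415), the lowest 40% of genes left out (0.0452), array weights (0.0288) or mutant replicate 1 removed (0.0376). Krt10, a type I keratin of the suprabasal epidermis, stood at 5.75, 5.79 and 5.68 against 5.54, 5.73 and 5.56, with overlapping groups (-0.13, SE 0.09, adjusted p = 0.403 by limma).

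Krt12, the type I keratin of the corneal epithelium, gave 2.50, 3.07 and 2.78 in control and 2.13, 2.38 and 1.96 in mutant arrays. The groups did not overlap, but all 6 values were below 16. The difference was -0.63 (SE 0.17, adjusted p = 0.0494 by limma), and its second probe set gave -0.53 (adjusted p = 0.0957 over all probe sets). The call did not survive the removal of a single array, unless that array was control replicate 1, with differences of -0.74 to -0.48 and adjusted p-values of 0.0667 to 0.135. It was also lost with median-centred arrays (adjusted p = 0.0532), quantile normalization (0.0517) and array weights (-0.50, adjusted p = 0.0759), and Krt12 was not tested when the lowest 40% of genes were left out. In these 4 settings Krt80 was called lower and Krt12 was not, so the count of 2 keratins lower held with a different gene.

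Of the 18 hair-type keratins measured, Krt83 rose, none fell and 16 were below 16 on all arrays, with a median of -0.01. The shares over all genes were 5.61% higher and 6.36% lower. Krt39, Krt40, Krt74, Krt85 and Krt87 were listed but not measured. Krt83, a type II keratin of the hair cortex, gave 5.36, 5.72 and 5.80 in control and 6.47, 6.44 and 6.33 in mutant arrays. The mutant arrays lay close together and above all control arrays. The mean rose from 5.63 ± 0.23 to 6.42 ± 0.07 (SD, n = 3), by 0.79 (SE 0.12, 1.73-fold, adjusted p = 0.00823 by limma). Krt83 has close relatives in Krt81 and Krt86, and the sources used here do not say whether its probes also read their transcripts.

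Krt81, a hair keratin and the other member of this class that reached 16 on an array, gave 4.06, 4.09 and 4.30 in control and 4.15, 3.99 and 4.22 in mutant arrays. These overlapped (-0.03, SE 0.10, adjusted p = 0.884 by limma), and Krt86, also a hair keratin and the direct neighbour of Krt83, differed by -0.09 at levels below 16. Krt31 and Krt32 were higher on each mutant array but dim and not called (0.29 and 0.15). Of the 3 keratins in no class, Krt42 was at 5.65, 5.70 and 5.83 in control and 5.66, 5.51 and 5.67 in mutant arrays (-0.11, adjusted p = 0.479 by limma), and its second probe set was dim and differed by 0.07. Krt88 and Krt222 were below 16 on all arrays and differed by -0.13 and -0.14. Outside the rule, the keratins whose symbols end in a letter were also below 16 throughout. Their differences were 0.08 for Krt6a, -0.08 for Krt6b, 0.13 for Krt33a and -0.01 for Krt33b, and 0 of the 4 had an adjusted p under 0.05 by limma or an unadjusted p under 0.05.

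The calls of Krt15, Krt5, Krt23, Krt83 and Krt18 held on leaving out each array in turn. They were lost in the same 2 of 17 alternatives, when all values below 16 were set to 16 and with the methods' t-test after adjustment. With the floor, Krt18 and Krt83 kept their differences of -0.80 and 0.79, none of their values being below 16, with adjusted p-values of 0.0566 and 0.0705. The differences of the dim genes shrank to 2.07 for Krt15 (adjusted p = 0.0554), 0.91 for Krt23 (0.13) and 0.77 for Krt5 (0.243).

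The genes that act with keratins were read from lists. Of 16 linkers that anchor keratins to desmosomes, hemidesmosomes and other filaments, 8 fell and 1 rose, with a median of -0.43, beside 6.36% of all genes called lower and 5.61% called higher. Itgb4, an integrin chain of hemidesmosomes, gave 5.44, 5.57 and 5.48 in control and 4.57, 4.15 and 4.08 in mutant arrays. The groups lay far apart, and the fall was -1.23 (SE 0.13, adjusted p = 0.00189 by limma). Itga6, its partner chain, and Col17a1, also of hemidesmosomes, went the other way, by 0.19 and 0.44, and were not called. Ppl, which encodes periplakin, differed by -0.82 (adjusted p = 0.0358), a call that held without mutant replicate 3 but not without any other single array (-0.82 to -0.65, adjusted p = 0.0731 to 0.128). Pkp2, a plakophilin of desmosomes, fell by 0.64 (adjusted p = 0.00912), while its other 3 probe sets differed by -0.26, 0.02 and 0.25 and were not called, and the mean of its probe sets differed by -0.16 (adjusted p = 0.268). Dsp, Dst, Plec, Evpl and Fam83h fell by 0.43 to 0.59. Pkp1, the plakophilin of stratified epithelia, rose by 0.66 (SE 0.09, adjusted p = 0.00535), all its values being below 16. Without control replicate 1 or without mutant replicate 2, 4 linkers were called lower, and with the mean of probe sets 5 were lower and 2 higher.

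Of 16 other intermediate filament genes, Synm rose and none fell, beside 5.61% and 6.36% of all genes. Synm encodes synemin, which joins filaments in muscle cells, and went from 6.74, 7.39 and 7.33 to 8.25, 8.59 and 8.48 (1.28, SE 0.18, adjusted p = 0.00555 by limma). Vim, the filament of mesenchymal cells, differed by -0.35 and Des, that of muscle cells, by -0.22, and neither was called.

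Of 23 genes of squamous differentiation and the cornified envelope, 2 rose, 1 fell and 18 were below 16 on all arrays, with a median of -0.03 (5.61% of all genes were higher and 6.36% lower). Trp63, the p63 transcription factor of basal epithelial cells, gave 2.62, 2.70 and 2.29 in control and 3.88, 4.54 and 4.56 in mutant arrays. The groups did not overlap (1.79, SE 0.20, adjusted p = 0.00208 by limma), but its other 3 probe sets differed by -0.16, 0.12 and -0.02, and the mean of its probe sets differed by 0.43. Sprr1a, a precursor of the cornified envelope, gave 4.21, 3.05 and 4.24 against 5.58, 5.49 and 6.84 (2.14, SE 0.43, adjusted p = 0.0197 by limma), and its adjusted p was 0.0522 without control replicate 1. Perp, a membrane protein of desmosomes, fell from 7.76, 7.81 and 7.82 to 6.69, 6.46 and 6.87 (-1.12, SE 0.11, adjusted p = 0.00142 by limma). Ivl and Flg, which encode involucrin and filaggrin of the upper epidermis, were dim in both groups. Without control replicate 1, 1 gene of this list was called higher.

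Of 11 regulators and shaft proteins of the hair follicle, 3 rose and none fell, with a median of 0.07, where 5.61% of all genes were higher and 6.36% lower. The 3 are regulators and not shaft proteins. Shh, a hedgehog ligand, gave 2.27, 2.27 and 2.48 in control and 6.31, 7.08 and 6.93 in mutant arrays, a rise of 4.44 (SE 0.19, adjusted p = 8.94e-05 by limma). Its control arrays were all below 16, so the size is not well fixed. The rise was 2.78 with a floor of 16 and 2.34 with the mean of its probe sets, the dimmer of which differed by 0.25 and was not called. Lef1, a nuclear partner of β-catenin, rose by 2.35 (SE 0.11, adjusted p = 9.56e-05). Msx2, a homeobox factor, rose by 0.65 (adjusted p = 0.0377), a call that held without mutant replicate 1 but not without any other single array (0.48 to 0.72, adjusted p = 0.0632 to 0.106). Hoxc13 and Foxn1, which drive hair keratin genes, were below 16 on all arrays, with differences of 0.29 and -0.06.

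Of 17 factors known to control epithelial genes, 6 fell and 1 rose, with a median of -0.15 (6.36% of all genes were lower and 5.61% higher). Klf4 gave 8.94, 9.05 and 8.96 in control and 7.91, 7.75 and 7.71 in mutant arrays, a fall of 1.19 (SE 0.09, adjusted p = 0.000381 by limma). Ovol2 fell by 0.97 (adjusted p = 0.00339) and Elf3 by 0.85 (adjusted p = 0.0301), the call of Elf3 being lost without control replicate 1 or without any single mutant array (-0.91 to -0.81, adjusted p = 0.0578 to 0.109). Foxa2, the factor of uterine glands, was higher, at 4.99, 5.25 and 4.88 in control and 6.23, 6.71 and 6.82 in mutant arrays (1.54, SE 0.17, adjusted p = 0.00193 by limma). When control replicate 1 was left out, 3 of these factors were called lower, as when mutant replicate 1 or 2 was left out, and 3 were called higher without mutant replicate 1.

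**Figure D3:**
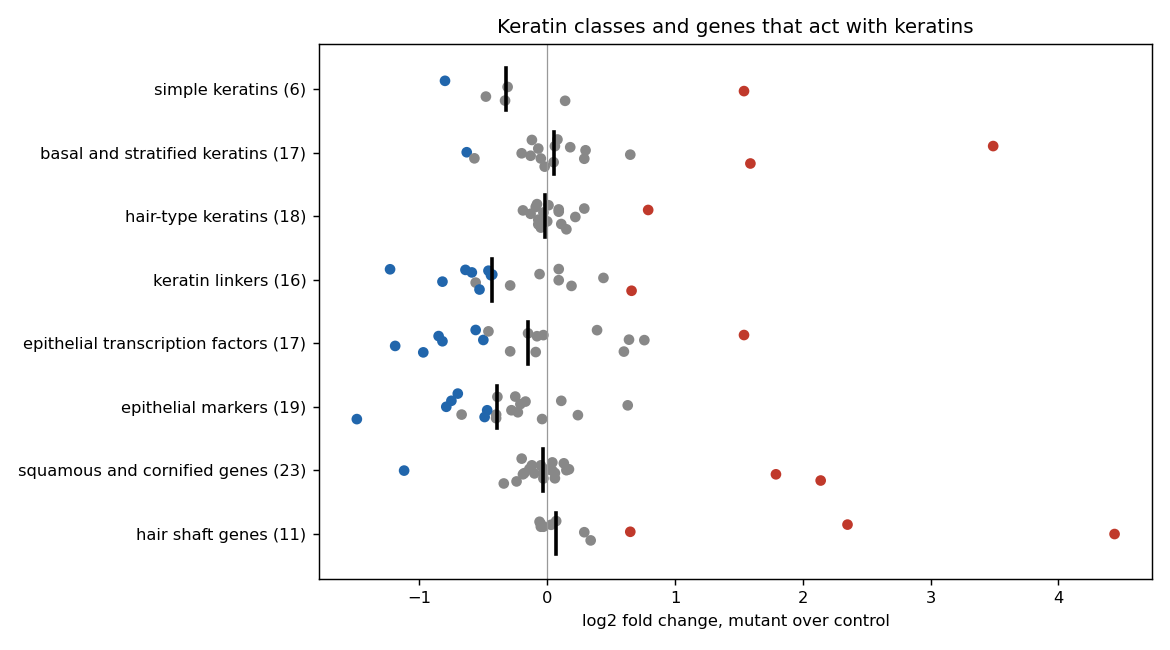
The log2 differences of mutant minus control are plotted for each gene of the keratin classes and of the related gene lists, with a line at the median of each list. The medians of the keratin linkers and the epithelial markers are -0.43 and -0.39, and that of the hair-type keratins is -0.01.

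Of 19 epithelial markers measured other than keratins, 6 fell and none rose, against 6.36% of all genes lower and 5.61% higher, with a median of -0.39 and none below 16 on all arrays. Their summed level was 12.67 to 12.75 on the log2 scale in control and 12.10 to 12.64 in mutant arrays. Cldn10, a claudin of glandular epithelium, fell by 1.49 (SE 0.17, adjusted p = 0.00258 by limma), and Prss8, a serine protease of epithelial surfaces, by 0.79 (adjusted p = 0.0109), Wfdc2, a secreted protease inhibitor, by 0.75 (adjusted p = 0.0247) and Rab25, a trafficking GTPase, by 0.70 (adjusted p = 0.0154). Epcam and Cdh1, which encode adhesion proteins of epithelial cells, differed by -0.04 and -0.28 and were not called. Prom1, Cldn4 and Tspan8 went the other way, by 0.63, 0.24 and 0.11, and were not called either. All other markers of the list had negative differences. The mean of the markers was 7.64, 7.50 and 7.64 in control and 7.15, 7.04 and 7.53 in mutant arrays, so mutant replicate 3 reached the control range. Without control replicate 1, 1 of these markers was called lower, the adjusted p being 0.0528 for Prss8, 0.0567 for Rab25 and 0.0816 for Wfdc2. The call of Wfdc2 was also lost without control replicate 2, control replicate 3 or mutant replicate 1 (adjusted p = 0.0553 to 0.0721). Relative to this mean on the same array, Krt18 differed by -0.45, Krt8 by -0.13, Krt19 by 0.05 and Krt7 by 0.50, values given with no test. The part of epithelial content in the keratin differences was not tested.

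Markers of other cell types were read in the same fit. Of 6 adipocyte markers, 3 rose (Retn by 2.35, Cidec by 1.82 and Lipe by 0.74), against 5.61% of all genes, and their summed level was 7.54 to 10.48 in control and 11.27 to 11.92 in mutant arrays. Retn, with an adjusted p of 0.0407, lost its call without control replicate 1 or without any single mutant array (2.02 to 2.66, adjusted p = 0.0664 to 0.146). Lipe's second probe set differed by -0.25, and with the mean of probe sets Lipe differed by 0.25 and was not called (adjusted p = 0.172). Of 7 mesothelial markers, 0 passed the threshold by limma and 2 had an unadjusted p under 0.05. Mesothelium also makes simple keratins, and the summed level of its markers was 8.10 to 8.51 in control and 8.01 to 8.18 in mutant arrays, with Bnc1 at -0.54 and Wt1 at -0.30. Of 10 stromal markers, only Hand2 was called, with a rise of 1.49. Of 8 endothelial markers, only Tek was called, lower by 0.85 (adjusted p = 0.0282 by limma). Over all genes 5.61% were higher and 6.36% lower. The endothelial median was 0.07. Prox1, Lyve1, Emcn and Kdr differed by 0.77, 0.45, 0.29 and 0.19, and Cdh5, Pecam1 and Tie1 by -0.29, -0.20 and -0.05. With the mean of its probe sets Hand2 rose by 0.97. The call of Tek was lost when control replicate 1 or 2 or mutant replicate 2 or 3 was removed (-0.90 to -0.69, adjusted p = 0.0676 to 0.093). Of 8 smooth muscle and 8 immune markers none was called, with 1 and 0 at an unadjusted p under 0.05. Those with the smallest p were Lmod1 (-0.27) and Acta2 (0.16), of the contractile apparatus, and the macrophage marker Adgre1 (0.19) and Ptprc (-0.23), the common leukocyte antigen. The part of any of these cell types in the keratin differences was not tested.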

How the data were processed

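Groups and replicate numbers were read from the sample labels, which give no batch. The values the authors deposited are linear intensities, 1 for each probe set on each array. RMA is named in the submitters' processing notes, with no version in the sources used here. A design on log2 values had been planned, so log2 was taken, with a floor of 1 that changed 0 values. Probe sets were named from GEO's platform annotation. Of 45037 probe sets, those with several symbols (932) or no symbol (9160) were left out. The brightest probe set over all arrays stood for a gene (9010 genes had more than 1, as had 8 of the 44 keratins). Mutant and control arrays were compared in a two-sided test by limma 3.58.1 (R 4.3.3) with no covariate, with Benjamini-Hochberg adjustment over 18193 genes. Gene order came from the RefSeq table of GRCm38.p6.

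The keratins and the gene lists were chosen with earlier results of these data known. Values are given for keratins that were called, had a group mean of 4 or more on the log2 scale or are simple keratins, and for at most 4 called genes of each other list by size of change, or, with none called, for 2 by p. Krt13, Krt14, Krt31, Krt32, Krt86, Krt88, Krt222, Dsp, Dst, Plec, Evpl, Fam83h, Epcam, Cdh1, Vim, Des, Hoxc13, Foxn1, Ivl and Flg were chosen after their values were seen. So were Prom1, Cldn4, Tspan8, Prox1, Lyve1, Emcn, Kdr, Cdh5, Pecam1, Tie1, Itga6, Col17a1, Adipoq and Fabp4. The alternatives were other scalings and probe set rules, a floor of 16, leaving out the lowest 40% of genes, array weights, an intensity trend, the methods' t-test, a fold above 1.5, a block on replicate number and leaving out arrays. ChIP-seq and the other experiments were not analysed here.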

Additional observations from a re-analysis of the deposited data

How the results depend on the processing

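Of 821 values for 51 single genes under alternatives, 709 stayed on the same side of the threshold with no change of sign. Of the others, 99 lost the call, 6 gained it and 7 changed sign. A difference that the floor of 16 brought to 0.00, as for Krt20, was not counted as a change of sign. The sign changes were all in genes not called: Krt7 (-0.03 without mutant replicate 3, with a range of -0.03 to 0.31 without 1 array), Krt81 (0.04 without control replicate 3, 0.03 without mutant replicate 2 and 0.03 with array weights, range -0.08 to 0.04), Krt33a (-0.01 without mutant replicate 3, range -0.01 to 0.23) and Krt33b (0.03 without control replicate 3 and 0.02 with array weights, range -0.05 to 0.03). With a floor of 16, 283 genes were higher and 243 lower, against 1021 and 1157, and 0 keratins were called in either direction by limma, with 6 at an unadjusted p under 0.05. With the methods' t-test and adjustment, 105 genes were higher and 39 lower, and 0 keratins were called, with 7 at an unadjusted p under 0.05, against 11 by limma. A fold above 1.5 with an unadjusted p under 0.05 gave 757 genes lower. Leaving out 1 array gave 480 to 971 genes higher and 372 to 1139 lower, both lowest without control replicate 1, and 4 to 5 keratins higher and 1 to 2 lower. Without mutant replicate 1, Krt13 and Krt80 were called and Krt12 was not. Leaving out control replicate 2 and mutant replicate 1 together, chosen after seeing the data, left 759 genes higher and 773 lower, with 5 keratins higher and 1 lower. With all probe sets adjusted together, 1 keratin was lower. In each case the cause was not tested. Samples of the same number deviated together with correlations of 0.011, 0.212 and 0.164, and samples of different numbers with -0.212 to 0.112. The labels state no pairing, so the main test used none. Whether the numbers pair the arrays is not settled. With the replicate number as a block, 966 genes were higher and 1085 lower, and 4 keratins were higher and 3 lower, Krt8 being called (-0.48, adjusted p = 0.0204). The 3 arrays per group limit the precision, and the 32 keratins below 16 on all arrays have little signal over background, so that a difference in them may not have been detectable.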
